A study of Arabidopsis with 2 samples.

Results

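Class III homeodomain-leucine zipper (HD-ZIP III) genes and their partners in cotyledon patterning, AS1 and AS2, were followed in embryos mutant for both CUC1 and CUC2 (CUP-SHAPED COTYLEDON genes). The members were the HD-ZIP III genes PHB (AT2G34710), PHV (AT1G30490), REV (AT5G60690), CNA (AT1G52150) and ATHB8 (AT4G32880), together with AS1 (AT2G37630) and AS2 (AT1G65620). They were picked out of the array by gene identifier. Each of these 7 genes had 1 probe among the 21500 gene probes of the array, and RefSeq lists CNA as ATHB-15 and ATHB8 as HB-8.

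The cuc1 cuc2 group consisted of embryos homozygous for cuc1-1 and cuc2-1, excised from the progeny of cuc1-1 cuc2-1/+ parents. The Ler group consisted of embryos of the wild-type accession Landsberg erecta, in whose erecta background both mutations lie. Only part of the progeny of such parents is doubly homozygous, and how these embryos were recognised is not given in the sources used here. Untreated embryos labelled as torpedo stage, about 100 per genotype, gave 1 RNA extract each, and both extracts were hybridized together on 2 arrays, with cuc1 cuc2 in the red dye Cy5 in experiment 1 and in the green dye Cy3 in experiment 2. The experiments therefore repeat the same pair of extracts, and their difference is technical error only, so no test across embryo samples was possible. Because whole embryos were extracted, fewer cells of a type and less RNA per cell cannot be told apart.

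HD-ZIP III proteins are transcription factors that give cells an adaxial fate, the upper side of leaves and cotyledons, and that act in the shoot apex and in the vasculature. Their transcripts are cleaved under the direction of the microRNAs miR165 and miR166, and the KANADI genes of the abaxial, or lower, side oppose them. AS1, a MYB protein, and AS2, a LOB-domain protein made on the adaxial side, form a complex. This complex keeps class I KNOX genes such as BP and KNAT2 silent in developing organs, while another KNOX gene, STM, keeps AS1 out of the shoot meristem.

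The values below are processed signals, which are spot brightnesses after background subtraction and dye normalization, and log2 ratios of cuc1 cuc2 over Ler, in which a positive value is a higher signal in cuc1 cuc2. Dyes were normalized within each array, so signals of the genotypes are compared within an experiment only. The error after each ratio is 1 SD of the scanner's error model, and the deposited p-value of a ratio compares the labelled extracts on that array only. All 7 probes were well above background in both genotypes of both experiments, and none was marked as saturated or uneven. In all, 18102 gene probes were well above background in every channel. Per channel, 87.5% to 88.8% of the gene probes were well above background.

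CUC2 (AT5G53950), one of the mutated genes, had processed signals of 430.4 and 297 in cuc1 cuc2, against 663 and 594 in Ler, and a mean log2 ratio of -0.81, which lay between -0.49 and -0.30 under other processing. CUC1 (AT3G15170) had a mean log2 ratio of -0.045, with 0.021 in experiment 1 and -0.11 in experiment 2. Where their probes lie relative to the mutations is not given in the files, so neither gene is a check of the labels. With a deposited p-value of 0.058 in experiment 1, CUC2 was not called by the study's selection rule. Across all gene probes the log2 ratios of the experiments were negatively correlated (r = -0.44), and across the 18102 probes well above background r was -0.020. By mean processed signal, r was 0.62 at 4096 to 8192, the band of PHV and AS1, 0.58 at 2048 to 4096, where PHB, REV and ATHB8 lie, 0.27 at 512 to 1024, the band of CNA, and -0.59 at 128 to 256, that of AS2. The direction of each ratio rests on the dyes named in the labels. Under these labels STM, which the paper lists as lower in cuc1 cuc2, had log2 ratios of -2.18 and -1.99. The paper also cites earlier reports that cuc1 cuc2 lacks STM expression. The study's selection rule called 52 gene probes lower, the same number as the paper lists. That list, with STM in it, was made from these same arrays, so neither match is a check of the direction.

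For each of the HD-ZIP III genes, the 95% interval of the mean log2 ratio included 0, although CNA, ATHB8 and REV had means larger than 1 error of that mean. PHB, REV, CNA and ATHB8 had slightly higher signals in cuc1 cuc2 in both experiments, on average 1.07-fold to 1.20-fold of those in Ler, and PHV was near equal. AS1 and AS2 each gave ratios of opposite sign in the experiments.

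PHB, which promotes adaxial fate and acts in the apical part of the early embryo, had processed signals of 3351 and 3413 in cuc1 cuc2, against 3079 and 3227 in Ler. The signal was higher in cuc1 cuc2 in both experiments. The log2 ratio was 0.12 ± 0.17 in experiment 1 and 0.081 ± 0.17 in experiment 2, with deposited p-values of 0.47 and 0.63. The mean of 0.10 had a 95% interval of -0.13 to 0.33, which corresponds to a signal between 0.91-fold and 1.26-fold of that in Ler.

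PHV, the closest relative of PHB and redundant with it, had processed signals of 7344 and 7967 in cuc1 cuc2, against 7818 and 7728 in Ler. Its signal in cuc1 cuc2 was lower than in Ler in experiment 1 and higher in experiment 2. The log2 ratios were -0.090 ± 0.16 and 0.044 ± 0.16, with p-values of 0.58 and 0.79. Their mean was -0.023, with a 95% interval of -0.25 to 0.20. Whether the PHB and PHV probes also bind each other's transcripts was not tested, since the probe sequences were not used here.

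REV, which is needed for lateral meristems and for the patterning of vascular bundles and fibres, had processed signals of 4291 and 3940.5 in cuc1 cuc2, against 4072 and 3448 in Ler. Within each experiment cuc1 cuc2 was the higher, while the values of the same Ler extract differed between the experiments. The log2 ratios were 0.076 ± 0.17 and 0.19 ± 0.17, with p-values of 0.65 and 0.25, and the mean of 0.13 had a 95% interval of -0.097 to 0.37.

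CNA, which acts with PHB and PHV in limiting meristem size, had processed signals of 1099 and 1070.05 in cuc1 cuc2, against 933 and 876 in Ler. In both experiments the signal was higher in cuc1 cuc2, and CNA had the highest mean ratio of the 7 genes. The log2 ratio was 0.24 ± 0.22 in experiment 1 and 0.29 ± 0.20 in experiment 2, with p-values of 0.29 and 0.14. The mean of 0.26, a 1.20-fold higher signal, had a 95% interval of -0.027 to 0.55. Of the gene probes of similar brightness (mean processed signal of 512 to 1024), 5.98% had a mean ratio at least as high.

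ATHB8, an auxin-induced gene of the procambium from which vascular tissue forms, had processed signals of 2654 and 2590.3 in cuc1 cuc2, against 2465 and 2281 in Ler. Again cuc1 cuc2 was the higher within each experiment. The log2 ratios were 0.11 ± 0.17 and 0.18 ± 0.17, with p-values of 0.54 and 0.28. Their mean was 0.14, with a 95% interval of -0.093 to 0.38.

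**Figure D1:**
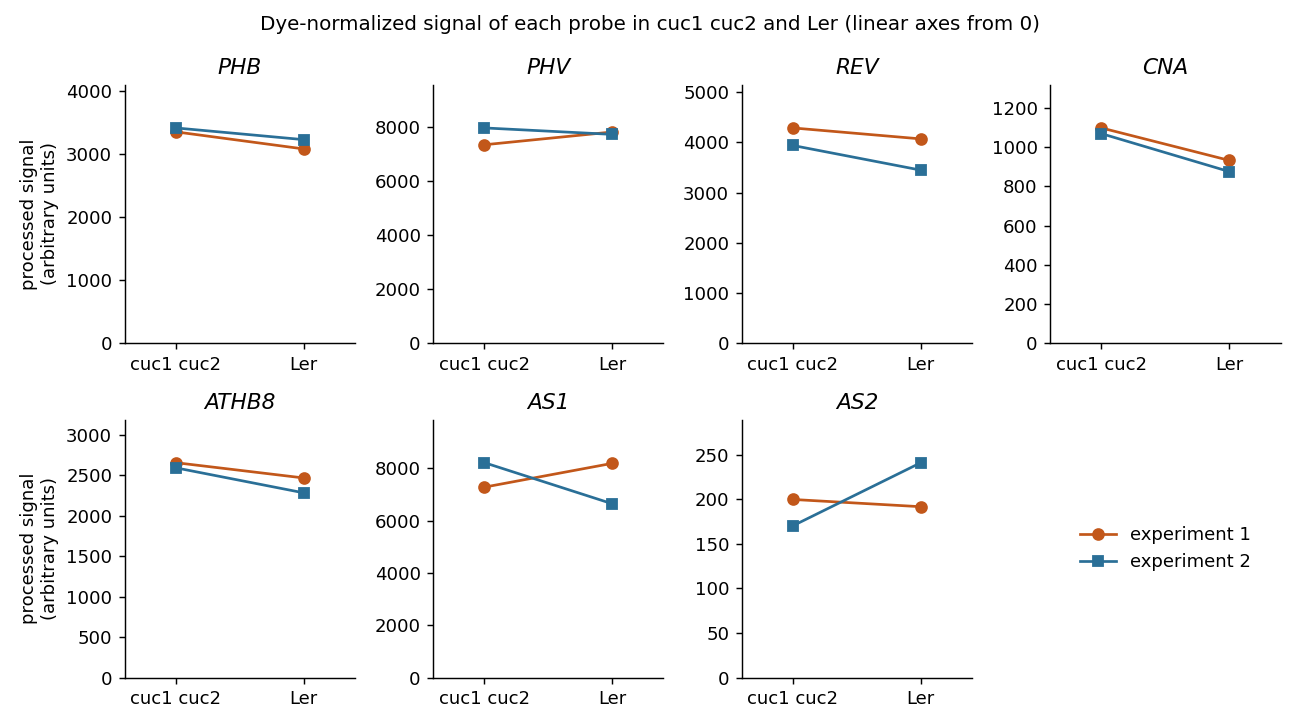
Dye-normalized processed signal (arbitrary units, linear axis from 0, 1 panel per gene) in cuc1 cuc2 and in Ler, with the points of 1 experiment joined by a line. The lines of PHB, REV, CNA and ATHB8 run down towards Ler in both experiments, whereas those of PHV, AS1 and AS2 cross.

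AS1 had processed signals of 7275 and 8209 in cuc1 cuc2, against 8184 and 6639 in Ler. The cuc1 cuc2 signal was thus lower in experiment 1 and higher in experiment 2, and in both experiments the Cy3 channel was the brighter. The log2 ratio was -0.17 ± 0.16 in experiment 1 and 0.31 ± 0.17 in experiment 2, with p-values of 0.30 and 0.064. The mean was 0.068, with a 95% interval of -0.16 to 0.30. The experiments differed by 0.48 on the log2 scale, more than the 0.46 that the errors allow at 95%. Among the 18102 probes well above background, 1.13% exceeded their own limit, a smaller share than a 95% limit leaves outside. Across the array the scanner's errors were thus wide beside the differences between repeats. Among probes of the brightness of AS1 (mean processed signal of 4096 to 8192), 0.748% differed by as much as AS1. For AS1 itself, the interval of the mean ratio was narrower than the difference between its repeats.

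AS2 was the dimmest of these probes, with processed signals of 199.7 and 170.2 in cuc1 cuc2, against 192 and 241 in Ler. Its ratio was near 0 in experiment 1 and below 0 in experiment 2. The log2 ratios were 0.060 ± 0.79 and -0.50 ± 0.53, with p-values of 0.94 and 0.34. With a mean of -0.22 and a 95% interval of -1.16 to 0.71, a signal between 0.45-fold and 1.64-fold of that in Ler was within the error for AS2. Experiments differed by 0.56 on the log2 scale for AS2, and 41.5% of the probes of similar brightness (mean processed signal of 128 to 256) differed by as much.

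**Figure D2:**
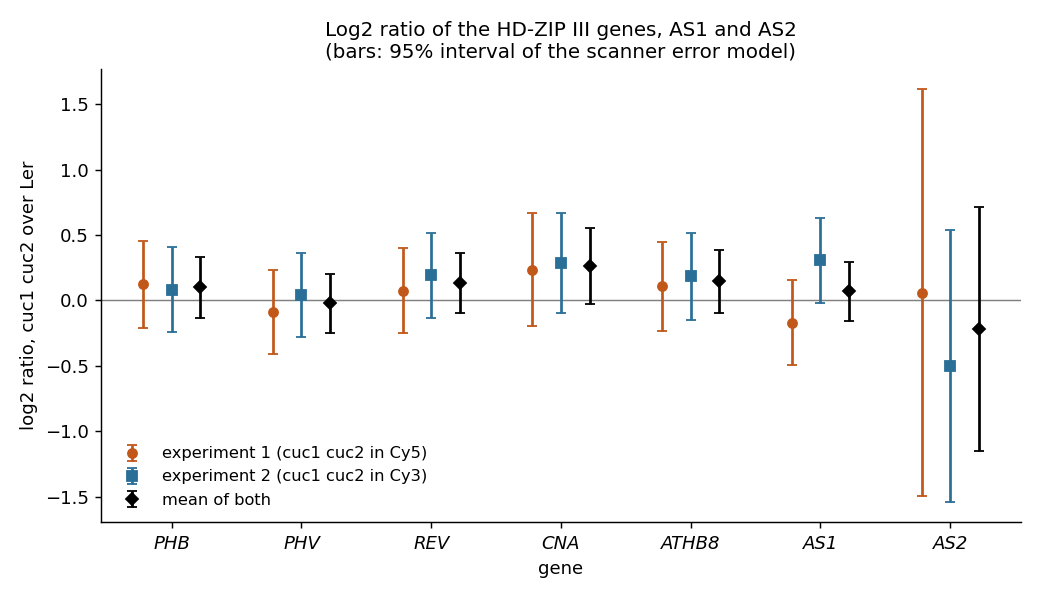
Log2 ratio of cuc1 cuc2 over Ler for each gene in experiment 1 (circles), experiment 2 (squares) and as the mean of both (diamonds), with 95% intervals from the scanner's error model as bars. All 7 mean intervals include 0, and that of AS2, from -1.16 to 0.71, is the widest.

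By the rule of the study's methods, a deposited p-value under 0.01 and a lower signal in cuc1 cuc2 in both experiments, 0 of the 7 members were called. The mirror of this rule for higher signals, which the study's methods do not describe, also called 0. The study's rule called 0.242% of all gene probes lower in cuc1 cuc2, and its mirror called 0.502% higher. No member reached a p-value under 0.05 in either experiment, the smallest being the 0.064 of AS1 in experiment 2. With p-values under 0.05 and the same sign required in both experiments, 0.474% of all gene probes were lower and 1.1% higher. Beside shares this small, 0 of the 7 does not set the members apart from the array. A log2 ratio beyond 0.5 with the same sign in both experiments, a 1.41-fold difference, was likewise reached by 0 of the 7 genes, with a background of 0.344% lower and 0.712% higher. Ratios were above 0 in both experiments for 4 of the 5 HD-ZIP III genes, against 23.1% of all gene probes, 26.1% of those well above background and 31.0% of those also as bright as PHB, REV and ATHB8. No member was below 0 in both experiments, against 22.9% of all gene probes and 26% of those well above background. The median of the mean log2 ratios was 0.13 over the 5 HD-ZIP III genes and 0.10 over the 7 members, whereas it was -0.00059 over all gene probes. In experiment 1 the HD-ZIP III median was 0.11, and in experiment 2 it was 0.18.

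The mean log2 ratios descended from 0.26 for CNA through ATHB8 (0.14), REV (0.13), PHB (0.10), AS1 (0.068) and PHV (-0.023) to -0.22 for AS2. Of the 21 pairs of members, 0 differed by more than the 95% limit of the difference, neighbours in this order included. The widest gap, 0.48 between CNA and AS2, had an interval of -0.50 to 1.46. Among the HD-ZIP III genes alone, the widest gap was between PHV and CNA, where PHV minus CNA was -0.29 with an interval of -0.65 to 0.083.

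**Figure D3:**
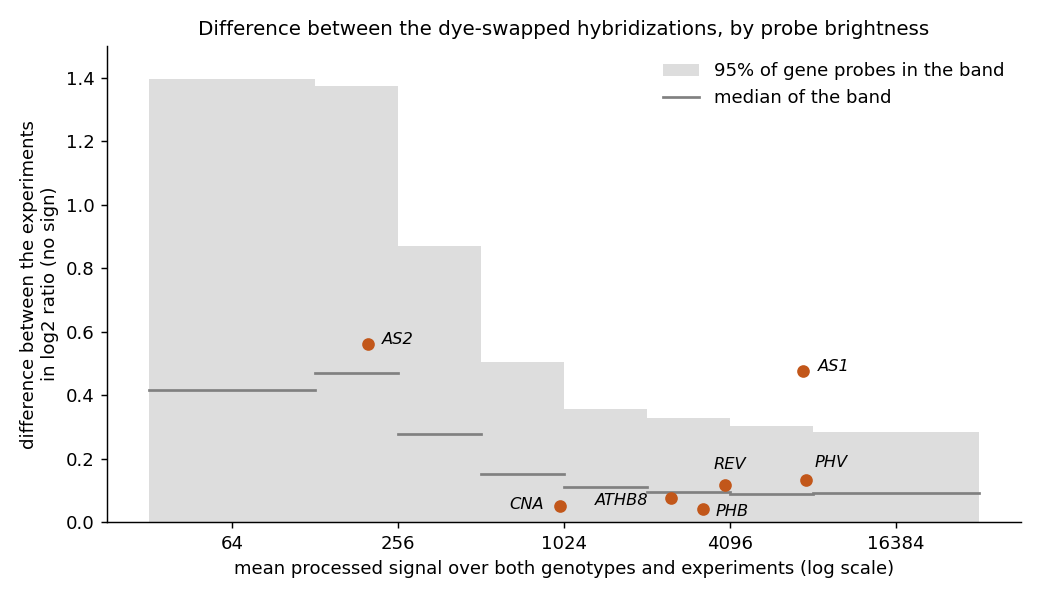
Difference in log2 ratio between the experiments, without sign, against the mean processed signal of the probe (log scale), for the 7 genes (points) over the median (lines) and the range of 95% (grey) of all gene probes of each brightness band that were well above background. AS1, at 0.48, lies above the range of its band, which ends at 0.30, and the other 6 genes lie within theirs.

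The repeatability of these small ratios differed between the genes. The experiments differed by only 0.041 for PHB, 0.052 for CNA and 0.077 for ATHB8 on the log2 scale, and by 0.12 for REV and 0.13 for PHV. These gaps lay well inside the limits of 0.46 to 0.58 set by the errors of the HD-ZIP III ratios. A gap at least as wide as that of CNA was found in 82.3% of probes of similar brightness, and one as wide as that of PHV in 32.1%.

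Other ways of processing the scanner values turned the sign of no member's mean ratio, but that of CNA was smaller under each, and without background correction it was 0.15 in place of 0.26. Over 4 combinations of background correction and dye normalization, the mean log2 ratio ranged from 0.083 to 0.11 for PHB, from -0.023 to -0.0076 for PHV, from 0.12 to 0.16 for REV, from 0.15 to 0.21 for CNA and from 0.11 to 0.14 for ATHB8. For AS1 the range was 0.066 to 0.084, and for AS2 it was -0.11 to -0.044, so the -0.22 of AS2 was nearer to 0 under each of them. CNA and ATHB8 kept ratios above 0 in both experiments under all 5 ways. PHB and REV did so under 4, the exception being median centring without the intensity-dependent loess step, where PHB was 0.32 in experiment 1 and -0.096 in experiment 2. AS1 had the same sign in both experiments under that setting alone, with 0.11 and 0.057.

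**Figure D4:**
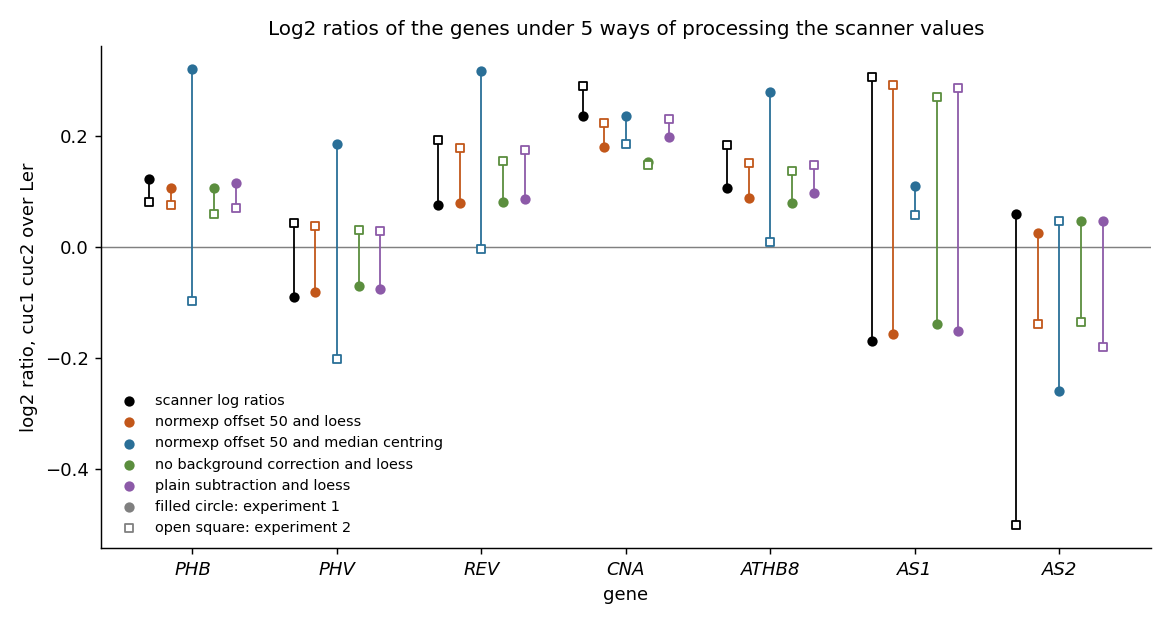
Log2 ratio of cuc1 cuc2 over Ler for each gene in experiment 1 (filled circles) and experiment 2 (open squares), joined by a line, under the scanner's own processing (black) and 4 other combinations of background correction and normalization (colours). The pairs of CNA and ATHB8 lie above 0 under all 5, and the -0.50 of AS2 in experiment 2 occurs only under the scanner's processing.

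The class I KNOX genes, which include targets of the AS1-AS2 complex, were compared with the members. STM (AT1G62360), required to form and keep the shoot meristem, had processed signals of 203 and 236 in cuc1 cuc2, against 919 and 936 in Ler. Its mean log2 ratio was -2.08, from -2.18 ± 0.39 and -1.99 ± 0.30, and it was the only gene called among the 66 probed genes of the related pathways. Other processing brought STM to between -1.27 and -0.79, and its sign did not change. Under the scanner's processing, the ratio of every member exceeded that of STM by more than the 95% limit of the difference. The gap was 1.86 for AS2 (95% interval of 0.81 to 2.92), 2.15 for AS1 (1.62 to 2.69) and up to 2.35 for CNA (1.78 to 2.91). STM ranked 3 from the lowest mean ratio among all gene probes, so any unchanged probe of similar error would also lie above it. These gaps therefore do not set the members apart from the array. BP (AT4G08150) and KNAT2 (AT1G70510), both targets of AS1 and AS2, had mean ratios of 0.21 and 0.16, and KNAT6 (AT1G23380) had 0.077. Other processing gave lower means, of 0.13 to 0.16 for BP, 0.059 to 0.096 for KNAT2 and 0.0095 to 0.024 for KNAT6, whose experiments then differed in sign. None of these 3 genes was called, and 0 of the 7 members differed from any of them by more than the 95% limit. The paper cites earlier work in which KNAT6 expression was absent from the cotyledon boundary region of cuc1 cuc2 embryos. Signals of whole embryos do not measure that region alone, so its dependence on CUC1 and CUC2 there was not tested.

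None of the probed genes that act directly on HD-ZIP III proteins or transcripts was called. The LITTLE ZIPPER genes encode leucine zipper proteins that bind HD-ZIP III proteins and block them, and their transcription is promoted by the HD-ZIP III proteins. ZPR1 (AT2G45450) had a mean log2 ratio of 5.8e-05 with a 95% interval of -0.25 to 0.25, and the dimmer ZPR3 (AT3G52770) had 0.14 with an interval of -0.57 to 0.84, and lay between -0.013 and 0.071 under other processing. AGO1 (AT1G48410), the main protein that carries microRNAs to their targets, had -0.096, while AGO10 (AT5G43810), which withholds miR165 and miR166 and so spares the HD-ZIP III transcripts, had 0.084. Of the 7 microRNA pathway genes probed, 0 were called, 2 were above 0 in both experiments and 3 below. Among all gene probes well above background, 26.1% were above 0 in both and 26% below. The microRNA pathway means ran from -0.17 (HEN1) to 0.17 (DCL1), both chosen after their values were seen. The microRNAs themselves, ZPR2 and ZPR4 were not analysed here.

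Among the abaxial genes that oppose the HD-ZIP III genes, KAN2 (AT1G32240) had log2 ratios of 0.049 and 0.21, and ATS (AT5G42630), a KANADI gene of the ovule integument, had 0.44 and -0.12. Their means of 0.13 and 0.16 lay at 0.085 to 0.11 for KAN2 and 0.073 to 0.12 for ATS under other processing. Of the 5 KANADI and YABBY probes well above background, 0 were called, 3 were above 0 in both experiments and 0 below. Over all gene probes well above background, 26.1% were above 0 in both and 26% below. KAN1, KAN3, YAB2 and YAB5 were not analysed here. The median over these probes was 0.13.

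Among genes tied to HD-ZIP III function, HAT3 (AT3G60390), an HD-ZIP II gene that promotes adaxial fate downstream of REV, had lower signals in cuc1 cuc2 in both experiments. Its processed signals were 1574 and 1719 in cuc1 cuc2, against 2055 and 2194 in Ler. The log2 ratios were -0.38 ± 0.19 and -0.35 ± 0.17, with p-values of 0.038 and 0.043 and a mean of -0.37, so HAT3 passed neither rule. ATHB4 (AT2G44910), which acts redundantly with HAT3, had a mean of 0.028. Of the 7 HD-ZIP II probes well above background, 0 were called, 0 were above 0 in both experiments and 3 were below. The shares over all gene probes well above background were 26.1% above and 26% below. DRN (AT1G12980) and DRNL (AT1G24590), AP2-type factors of the cotyledons that bind HD-ZIP III proteins, had means of -0.22 and -0.022, and that of DRN lay between -0.16 and -0.090 under other processing. MP (AT1G19850), the auxin response factor that activates ATHB8, had -0.095 with an interval of -0.32 to 0.13, beside the 0.14 of ATHB8.

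**Figure D5:**
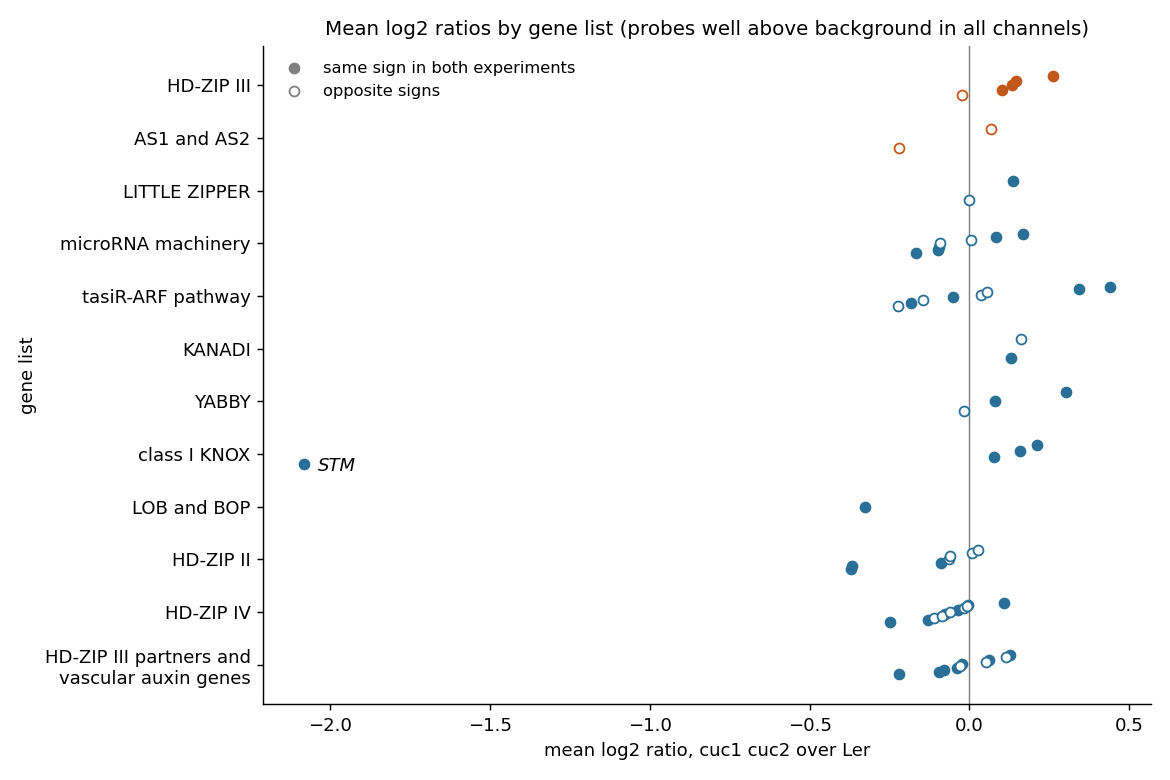
Mean log2 ratio (cuc1 cuc2 over Ler) by gene for the HD-ZIP III and AS1-AS2 lists (orange) and in 10 lists of related genes (blue), for probes well above background in all channels. Filled points had the same sign in both experiments, and STM, at -2.08, is the only point beyond 0.5 on either side.

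The embryo markers LEC1, LEC2, FUS3, ABI3, WOX2, OLEO1 and CRA1 were all well above background, with summed processed signals of 42451 and 45313 in cuc1 cuc2, against 41689 and 43206 in Ler. Without LEC1, which gave most of this signal, the sums were 14588.5 and 15180.3 in cuc1 cuc2, against 13929 and 14227 in Ler. Only OLEO1, an oil body protein gene of maturing embryos, was called, with a mean log2 ratio of 0.60, whereas the storage protein gene CRA1 had -0.26, from -0.43 and -0.089. Of 9 endosperm markers, 5 were well above background, with sums over all 9 of 2261 and 2107 in cuc1 cuc2, against 2280.2 and 1861 in Ler. Without SUC5, which had log2 ratios of 0.081 and 0.72, the sums were 1583 and 1318 in cuc1 cuc2, against 1639 and 1380.4 in Ler. Of the 5, SUC5 alone was above 0 in both experiments, and ALE1 alone, at -0.33 and -0.25, was below 0 in both. Of 8 seed coat markers, 6 were well above background, with sums over all 8 of 5501 and 5661 in cuc1 cuc2, against 6249.9 and 5811 in Ler, and BAN, which defines the inner seed coat, was not. STK, with log2 ratios of -0.33 and -0.23 and an interval of the mean of -0.54 to -0.019, and TT16, with -0.11 and -0.0041, were below 0 in both experiments, and none of the 6 was above 0 in both. For all gene probes well above background, the shares were 26.1% above 0 in both and 26% below. CRA1, SUC5, ALE1, STK and TT16 were chosen after their values were seen. The part of these tissues and of embryo age in the ratios of the HD-ZIP III genes was not tested.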

How the data were processed

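Total RNA of excised embryos was amplified to labelled cRNA and hybridized to a 2-colour Agilent Arabidopsis oligonucleotide array by a service company. The authors deposited the scanner output, made with Agilent Feature Extraction (version A.7.5.1 per the file headers). The deposited intensity values were spot means and, as processed signals, spot means from which the software had subtracted a fitted background surface and normalized the dyes. The deposited p-value of a spot came from its log10 ratio of red over green and the error of that ratio. The deposited value table holds the same log10 ratios and was tried as an alternative. The files name no genome build, so no coordinates are given.

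Control spots were left out (913 positive and 162 negative). With the dye labels, log ratios were expressed as log2 of cuc1 cuc2 over Ler and averaged over the 2 arrays. The error of the mean combined both array errors, and intervals are 1.96 errors. Intensities were also processed with limma 3.58.1 in R 4.3.3 (normexp with an offset of 50, plain subtraction or no correction, with loess or median centring). Other p and fold limits, a filter on dim probes and each array alone were tried too. Precision rests on 2 technical repeats, so intervals cover array error only. The scanner's errors behind these intervals were wide beside the differences between repeats across the array. Of the gene probes, 21191 matched RefSeq (assembly TAIR10.1), which gave names, and 99 of 107 list genes had a probe.

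The members and lists were chosen with earlier results of these data known. The genes named were the members, every called gene of the pathway lists, genes of stated roles whatever their values, and CUC1 and CUC2. Experiments 1 and 2 follow the paper's numbering of the dye orientations.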

Additional observations from a re-analysis of the deposited data

How the results depend on the processing

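With the 4 alternative treatments of background and dyes, all 28 mean ratios of single members differed from the reported mean by less than the larger of its error and the SD between the arrays. For PHB, PHV, AS1 and AS2 this margin was larger than the mean itself. A ratio of 0 would have passed there, so the count is a weak check. The deposited value table holds the same ratios and was no separate check. On 1 of the arrays alone, PHV, AS1 and AS2 each had the sign opposite to their mean. The median over the 7 members lay between 0.076 and 0.18 when 1 array was left out, the upper value coming from the array with cuc1 cuc2 in Cy3 alone, and the median over the HD-ZIP III genes lay between 0.11 and 0.18. On either array alone, 0 to 1 members passed the fold limit, the 1 being AS2, at -0.50 in experiment 2. The number of members called by p-value was 0 under every limit, filter and single array tried. With median centring in place of loess, 2 of the 5 HD-ZIP III genes were above 0 in both arrays, against 4 under the other settings, and over all gene probes the share above 0 in both was 11.2%, against 23.6%, 23.6% and 23%. No paired analysis was possible because both arrays hold the same pair of extracts. Brightness limits AS2 most, since a signal from 0.45-fold to 1.64-fold of that in Ler lies within its error, and none of the intervals covers differences between embryo collections.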

Other observations

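ARF4 (AT5G60450) and ETT (AT2G33860), auxin response factor genes of abaxial fate that are silenced by trans-acting small RNAs on the adaxial side, had higher signals in cuc1 cuc2 in both experiments. ARF4 had processed signals of 4483 and 4188 in cuc1 cuc2, against 3438 and 2964 in Ler. Its log2 ratios were 0.38 ± 0.17 and 0.50 ± 0.17, and 1.15% of probes of similar brightness had a mean at least as high as its 0.44. ETT had log2 ratios of 0.28 ± 0.17 and 0.40 ± 0.17, with a mean of 0.34. Neither gene passed the p-value or fold rule, both kept ratios above 0 in each experiment under all 5 ways of processing, and both were chosen after their values were seen. Of the 6 other probed genes of this small RNA pathway, which include AGO7 (-0.050) and RDR6 (-0.18), none was called. ARF2 (AT5G62000), a much dimmer auxin response factor gene among these 6, had 0.36 ± 0.89 and -0.66 ± 0.87, with a mean of -0.15.

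HD-ZIP IV genes, which are known for the epidermis, had a median log2 ratio of -0.059 over the 11 probes well above background. Of these, 1 was above 0 in both experiments (HDG1, at 0.11), 5 were below and 0 were called. Across all gene probes well above background, 26.1% were above 0 in both and 26% below. The epidermal regulators ATML1 and PDF2 had means of -0.11 and -0.059, but each had ratios of opposite sign in the experiments. ATML1 had -0.30 in experiment 1 and 0.077 in experiment 2, and PDF2 had -0.13 and 0.012. HDG1, ATML1, PDF2, ARF2, AGO7 and RDR6 are likewise named after their values were seen. YAB3 (AT4G00180), an abaxial gene chosen after its values were seen, had log2 ratios of 0.26 ± 0.19 and 0.34 ± 0.18. Its mean of 0.30 lay between 0.19 and 0.26 under other processing. The brighter YABBY gene FIL (AT2G45190), also named after its values were seen, had 0.0058 and -0.042, with a mean of -0.018.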
